A study of Mus musculus with 24 samples.

Results

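Mef2a, Mef2c and Mef2d encode 3 MADS-box transcription factors of the myocyte enhancer factor 2 (MEF2) family. They were chosen by symbol, 3 of 21887 protein-coding genes, because a very wide SOX9 peak at postnatal day 2 (P2) lies near Mef2c. All peaks within 200 kb of the 3 genes were taken with them, 259 of 349901 peaks in 8 deposited lists. The width of that P2 SOX9 peak, and the count of P2 SOX9 peaks near Mef2c, therefore describe how the genes were picked and support nothing.

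The lists come from CUT&RUN, in which an antibody brings a nuclease to a chromatin-bound protein and the fragments cut out around it are sequenced. Retinas of wildtype Mus musculus were taken at P2 and at postnatal day 17 (P17), and no strain, sex or treatment is given. Each reaction used 600000 nuclei of whole retina, with antibodies to SOX8 (2 antibodies, 4 libraries at each age), SOX9 (2 libraries at each age), the histone marks H3K4me3 and H3K27ac (2 libraries of each mark at each age) or nonspecific IgG, whose 4 libraries were not analysed here. One list stands for each target and age, with positions but no height, no score above 0 and no value per library, so no spread between replicates could be given and no test was made.

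SOX8 and SOX9 are related transcription factors of the SOXE group. SOX9 is present in retinal progenitors and later in Müller glia, the main glial cells of the retina. MEF2 proteins bind DNA as dimers, are held inactive by class IIa histone deacetylases and are switched on by calcium and kinase signals. In the retina MEF2C and MEF2D are known from photoreceptors, where MEF2D acts together with the photoreceptor factor CRX. H3K4me3 marks promoters in use, and H3K27ac marks active promoters and enhancers.

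The wide P2 SOX9 peak did not lie on Mef2c. It lay on another transcription unit downstream of it, the long non-coding RNA gene C130071C03Rik, within which the microRNA gene Mir9-2 lies. Mef2c itself, with 5 kb on either side, had no SOX8, SOX9 or H3K4me3 peak at either age. The name "distal SOX9 site of Mef2c" thus describes a position relative to Mef2c and no measured link to it.

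The sequences shown are promoters on which SOX peaks did or did not lie, and the microRNA under the wide peak. Mir9-2, like Mir9-1 and Mir9-3, gives the same pair of mature microRNAs, which are enriched in neural tissue and known for their part in the change from progenitor to neuron. RefSeq (GRCm38.p6) holds 1 sequence for each of these mature microRNAs in all 3 genes, and no other gene of that table shares either seed. Capitals mark the seed, bases 2 to 8, which pairs with target RNAs.
miR-9-5p: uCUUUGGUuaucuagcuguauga
miR-9-3p: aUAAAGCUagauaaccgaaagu

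For the promoters, the 250 bases before the start site are shown 5′ to 3′ on the strand of the gene, from RefSeq with the build GRCm38.p6. Capitals mark the SOX core motif, searched as ACAAT and as its reverse complement ATTGT. The first 2 are the promoters of Mef2a and Mef2d, both under P2 SOX peaks, and the next is the first of 3 Mef2c promoters, under no peak of any list. The last 3 are the promoters of C130071C03Rik in the order of their position, all under the wide P2 SOX9 peak.
Mef2a, chr7:67372859-67373108, minus strand: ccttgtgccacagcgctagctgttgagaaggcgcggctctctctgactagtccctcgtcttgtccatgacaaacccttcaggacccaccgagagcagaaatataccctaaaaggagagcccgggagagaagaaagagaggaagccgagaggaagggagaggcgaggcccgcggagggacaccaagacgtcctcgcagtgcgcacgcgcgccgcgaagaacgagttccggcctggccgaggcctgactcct
Mef2d, chr3:88142122-88142371, plus strand: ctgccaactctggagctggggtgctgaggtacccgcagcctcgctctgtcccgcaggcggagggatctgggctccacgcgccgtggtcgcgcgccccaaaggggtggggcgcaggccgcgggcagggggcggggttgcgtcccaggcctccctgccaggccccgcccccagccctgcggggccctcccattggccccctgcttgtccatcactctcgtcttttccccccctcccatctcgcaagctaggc
Mef2c, start 1, chr13:83503784-83504033, plus strand: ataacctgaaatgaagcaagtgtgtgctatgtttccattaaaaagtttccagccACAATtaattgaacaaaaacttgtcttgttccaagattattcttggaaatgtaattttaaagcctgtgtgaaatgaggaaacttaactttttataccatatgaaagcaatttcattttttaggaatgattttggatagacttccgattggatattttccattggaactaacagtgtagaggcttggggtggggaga
C130071C03Rik, start 1, chr13:83721131-83721380, plus strand: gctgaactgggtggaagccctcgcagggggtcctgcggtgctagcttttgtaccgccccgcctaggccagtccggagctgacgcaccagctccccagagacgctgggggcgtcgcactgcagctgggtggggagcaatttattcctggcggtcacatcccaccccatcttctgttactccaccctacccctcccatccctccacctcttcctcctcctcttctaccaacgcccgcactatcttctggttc
C130071C03Rik, start 2, chr13:83727856-83728105, plus strand: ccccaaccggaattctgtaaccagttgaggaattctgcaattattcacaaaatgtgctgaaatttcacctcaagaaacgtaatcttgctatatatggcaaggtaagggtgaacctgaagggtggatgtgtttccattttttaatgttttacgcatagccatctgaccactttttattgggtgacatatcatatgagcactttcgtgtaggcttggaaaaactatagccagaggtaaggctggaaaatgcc
C130071C03Rik, start 3, chr13:83732243-83732492, plus strand: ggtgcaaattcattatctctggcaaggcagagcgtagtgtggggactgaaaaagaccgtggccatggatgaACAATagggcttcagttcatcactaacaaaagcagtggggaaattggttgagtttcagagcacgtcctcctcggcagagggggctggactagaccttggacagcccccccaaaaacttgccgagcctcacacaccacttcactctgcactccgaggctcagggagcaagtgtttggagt

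The motif occurred 1 time in the window of the first Mef2c start, which had no SOX peak, and 1 time in that of start 3 of C130071C03Rik. It did not occur in these letters before the starts of Mef2a, Mef2d or the other C130071C03Rik starts. Over all 32851 promoters of the table, 27.7% of windows of the same length held it on either strand. The windows also differed in base composition. The GC content was 61.6% for Mef2a and 73.2% for Mef2d, with 21 and 19 CpG dinucleotides, against medians of 52.4% and 6 over all promoters. The first Mef2c window held 33.6% GC and 1 CpG. The C130071C03Rik windows, all under P2 SOX9 and H3K4me3, ranged widely, with 62.8% GC and 12 CpG at start 1, 40.4% and 4 at start 2, and 53.2% and 6 at start 3. The windows of Mef2c start 2 and start 3, not shown here, also had no SOX peak, and the motif occurred 0 times in each. Each window under a SOX peak covers only a small part of that peak. The search therefore cannot show whether the motif lies under the SOX peaks, and no link between motif and peaks is read from it.

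Each list was first read at the gene plus 5 kb on either side, with a peak counted when it overlapped by at least 1 bp. P2 SOX8 and P2 SOX9 peaks lay at 2 of the 3 genes, Mef2a and Mef2d. Over all protein-coding genes, 15.1% had a P2 SOX8 peak and 27.7% a P2 SOX9 peak there. At P17 only Mef2d of the 3 had a SOX8 peak (13% of all genes) and a SOX9 peak (15.7% of all genes). Mef2d was also the only one of the 3 with a peak in all 4 SOX lists, as 6.45% of all genes had.

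H3K4me3 and H3K27ac, marks of active chromatin, were read in the same way. H3K4me3 peaks lay at Mef2a and Mef2d at both ages, as at 49.3% of all genes at P2 and 50.9% at P17. Mef2c was among the 45.7% of genes with no H3K4me3 peak at either age. H3K27ac peaks lay at all 3 genes at both ages, against 81.8% of genes at P2 and 57% at P17. Among genes of at least 25 kb, as all 3 members are, the H3K27ac shares were 95.6% at P2 and 70.5% at P17. Those for H3K4me3 were 60.4% and 62.9%. The P2 H3K27ac list held 287845 peaks and the P17 list 29909, so a P2 H3K27ac peak singles out few genes.

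Within 200 kb of the 3 genes lay 5 P2 SOX8, 12 P2 SOX9, 4 P17 SOX8 and 4 P17 SOX9 peaks. All 3 genes had a P2 SOX8 peak (51.6% of all genes) and a P2 SOX9 peak (68.5% of all genes) in this window, and Mef2c and Mef2d had a P17 SOX8 peak (43.3%) and a P17 SOX9 peak (47.1%). All 3 had H3K4me3 in the window at P2 (81.3% of all genes) and at P17 (82.1%), and H3K27ac at P2 (95.6%) and at P17 (84.5%). A gene's median number of peaks in this window was 1 for P2 SOX8, 1 for P2 SOX9 and 0 for both P17 SOX lists. Most SOX peaks counted here belonged to the neighbourhoods of Mef2c and Mef2d, and Mef2a had none beyond its own promoter.

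Mef2c, on chromosome 13 from 83504017 to 83667079 on the plus strand, is 163.1 kb long and has 3 start sites in the promoter table. It is the family member best known for its part in heart, muscle and cortical neuron development. None of its 3 promoters lay under a peak of any SOX or H3K4me3 list. At P2 its gene and flanks held 7 H3K27ac peaks, between 591 and 1073 bp wide, and none of them lay on a promoter. At P17 they held 2 H3K27ac peaks, of 4789 and 2582 bp. The wider one ran from 83571453 to 83576241 and spanned start site 3, from 2154 bases before it to 2634 bases after it. H3K27ac was thus the only target with a peak on a Mef2c promoter, and only at P17.

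The 28401 bp P2 SOX9 peak ran from 83714801 to 83743201 on chromosome 13, and its nearer edge lay 47721 bp downstream of the end of Mef2c. It ranked 2 of 5476 P2 SOX9 peaks by width, and 4 peaks of that list were wider than 25 kb. It covered 100% of C130071C03Rik (83721381 to 83741308) with all its 3 start sites, 100% of the long non-coding RNA gene Gm52046 on the opposite strand (83714932 to 83721655) with its start site, and 100% of the microRNA genes Mir9-2 (83738814 to 83738885) and Gm51268. No protein-coding gene lay under it. Of the 6 widest P2 SOX9 peaks it was the only one with no protein-coding gene, which held for 10% of all P2 SOX9 peaks and for 18 of the 100 widest.

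Histone marks also formed wide peaks at this site. Their widths are not independent of the choice, since wide P2 SOX9 peaks tend to lie on wide H3K4me3 peaks, with a Spearman correlation of 0.472 between the widths over 4372 peaks. The P2 H3K4me3 peak over it spanned 34586 bp and was the widest of 9134 peaks in that list. The P17 H3K4me3 peak spanned 25158 bp and ranked 3 of 9629. H3K27ac formed a peak of 27844 bp at P2, rank 344 of 287845, and of 33236 bp at P17, rank 537 of 29909. The P2 H3K4me3 peaks ranked 2, 3 and 5 lay at Pax6, Six3 and Ccdc85c, under 3 others of the 6 widest P2 SOX9 peaks. P2 H3K4me3 covered 100% of the wide SOX9 peak, P17 H3K4me3 88.6%, P2 H3K27ac 97.7% and P17 H3K27ac 100%. Both marks were therefore listed over nearly the whole domain at both ages. Of all P2 SOX9 peaks 55.3% lay wholly under P2 H3K4me3, and of the 100 widest 37 did.

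The SOX peaks at the site were much narrower in the other 3 SOX lists. At P17, SOX9 had 1 peak of 6589 bp (83726526 to 83733114), which covered 23.2% of the P2 SOX9 peak and start sites 2 and 3 of C130071C03Rik. The first start site, the Gm52046 start and Mir9-2 lay under SOX9 at P2 only, with Mir9-2 now 5699 bases from the SOX9 peak. SOX8 had a peak of 1791 bp at P2 (83730278 to 83732068) and of 2863 bp at P17 (83728919 to 83731781), which covered 6.31% and 10.1% of the wide peak. All 3 lay between start sites 2 and 3 or across them, with centres 819 to 2172 bases from the centre of the wide peak. The P2 SOX8 and P17 SOX8 peaks lay on no promoter. The widest SOX8 peak of the whole list was 10029 bp at P2 and 16217 bp at P17. P2 SOX8 covered 7.7%, 41.4%, 42%, 48% and 23.4% of the P2 SOX9 peaks ranked 1, 3, 4, 5 and 6 by width. For P17 SOX8 the shares were 11.9%, 0%, 0%, 28.3% and 0%. Since the site was picked for its P2 SOX9 width, narrower peaks in the other lists describe it and test nothing.

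For comparison, 1705 of 5476 P2 SOX9 peaks overlapped a P17 SOX9 peak, and the median share of such a peak under P17 SOX9 was 98.5%. Among the 100 widest, 56 overlapped one, with a median share of 79.1%. The 23.2% of the wide peak was below both medians, and the other 5 of the 6 widest peaks had shares of 18.7%, 73.1%, 46.2%, 92.3% and 44%. Since the site was picked for its P2 width, a lower P17 share describes it and tests nothing. Read depth and calling threshold may differ between the lists, and their part in the widths was not tested.

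Beyond the wide peak lay 2 further P2 SOX9 peaks. The nearer one, 2624 bp wide from 83744501 to 83747124, overlapped a P2 SOX8 peak of 1824 bp and the edge of the P2 H3K4me3 domain, and lay on no gene. The other one, 2482 bp from 83748982 to 83751463, lay under P2 H3K27ac with no SOX8 and no H3K4me3 peak. Neither had a SOX peak at P17. The next P2 SOX9 peak, of 4446 bp, lay just outside the window at 202967 bases from Mef2c.

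**Figure D1:**
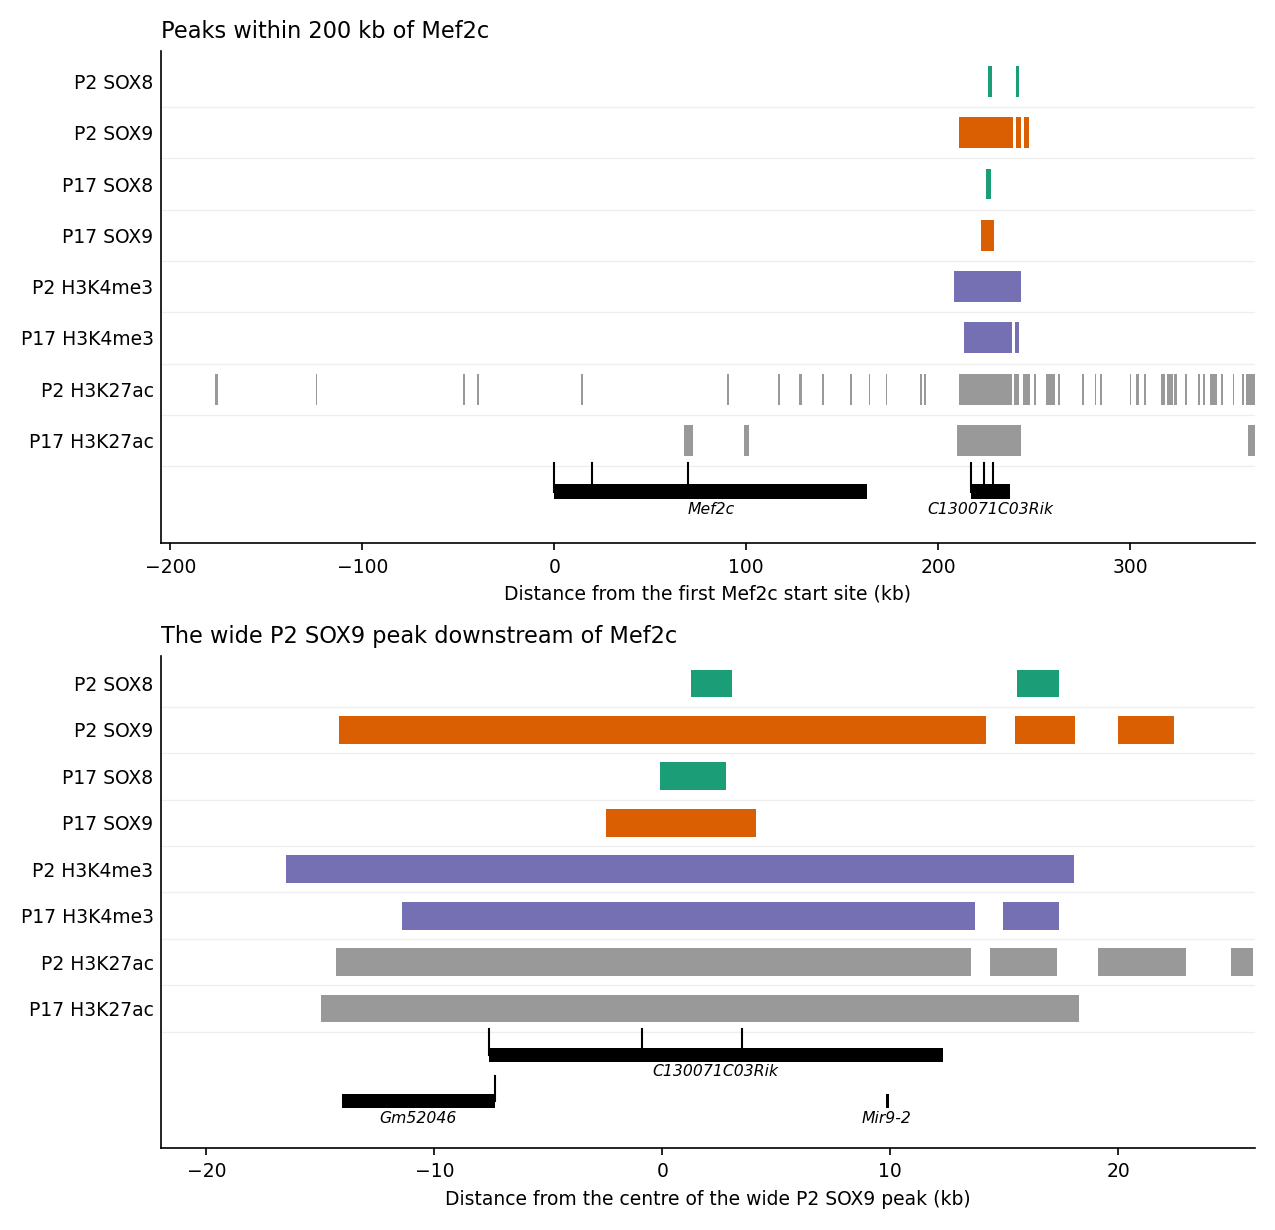
Peaks of the 8 lists (rows) around Mef2c as coloured blocks, against distance in kb from the first Mef2c start site (upper panel) and from the centre of the wide P2 SOX9 peak (lower panel). Black bars are genes and vertical ticks are start sites. The 28401 bp P2 SOX9 peak and the wide blocks of both marks lie over C130071C03Rik and Mir9-2, while the Mef2c gene carries only H3K27ac blocks.

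Mef2d, on chromosome 3 from 88141941 to 88172091 on the plus strand, is 30.2 kb long. Of the 3 genes it alone had SOX9 peaks at both ages, and the later one was wider. At P2, SOX9 had a peak of 3640 bp (88141397 to 88145036), from 975 bases before the start site to 2664 bases after it. The P17 SOX9 peak was 14276 bp wide (88139775 to 88154050) and reached from 2597 bases before the start site to 11678 bases after it. The added width thus lay mostly inside the gene. It ranked 948 of 5476 peaks by width at P2 and 54 of 2855 at P17.

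P17 SOX9 peaks were wider in general, with a list median of 5336 bp against 2668.5 bp at P2. The ratio of the widest P17 to the widest P2 SOX9 peak was 3.92 at Mef2d, against a median of 1.52 over the 2494 genes with a SOX9 peak at both ages, and 5.17% of those genes had a ratio as high. For SOX8 the ratio was 1.44, against a median of 1.12 over 1769 genes, of which 29.3% had as high a ratio. The P2 SOX8 peak was 3417 bp wide (88141430 to 88144846). At P17, SOX8 had 2 peaks in the gene, of 4266 bp over the start site and of 4915 bp from 88146752 to 88151666. Both lay inside the P17 SOX9 peak. The SOX8 ratio of 1.44 uses the 4915 bp peak, which overlapped no P2 SOX8 peak, so it does not compare the same site at both ages.

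The H3K4me3 peak at Mef2d was wider at P17 as well. It went from 11369 bp, rank 51 of 9134, to 17075 bp, rank 16 of 9629, a ratio of 1.5 against a median of 1.05 over 10043 genes. Its P17 peak reached 11698 bases past the start site, and the P17 SOX9 peak 11678 bases. H3K27ac was listed as 9 peaks at P2, the widest of 12205 bp, and as 1 peak of 51638 bp at P17 that covered 100% of the gene and its flanks. The bases under H3K27ac in gene and flanks went from 32870 to 40151. The ratio of widest H3K27ac peaks was 4.23 at Mef2d, 4.01 at Mef2a and 4.46 at Mef2c, against a median of 1.3 over 12412 genes, of which 11.8% had a ratio as high as that of Mef2d. It takes the widest peak of each age anywhere in gene and flanks, which need not be the same site. At Mef2c the widest P17 peak, of 4789 bp, overlapped no P2 H3K27ac peak, so its ratio shows no widening of a peak. At P17 the 3 targets SOX9, H3K4me3 and H3K27ac thus each had 1 unbroken peak over the first part of the gene.

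Mef2a, on chromosome 7 from 67231163 to 67376456 on the minus strand, is 145.3 kb long. SOX8 and SOX9 both had a P2 peak on its promoter and none at P17. The P2 SOX8 peak was 2691 bp wide (67371466 to 67374156), rank 696 of 2653, and the P2 SOX9 peak was 2204 bp wide (67371615 to 67373818), rank 3948 of 5476. The SOX9 peak lay wholly within the SOX8 peak. Of all genes with a P2 peak, 46.4% had none at P17 for SOX8 and 58.9% for SOX9, so absence at P17 was common. With equal numbers of the widest peaks from both SOX9 lists, the P2 SOX9 peak at Mef2a was itself not kept, and none of the 3 genes had a SOX9 peak at P2 only.

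The Mef2a promoter kept both marks. H3K4me3 was 3592 bp wide at P2 and 4318 bp at P17, a ratio of 1.2 against the median of 1.05. Of all genes with P2 H3K4me3, 6.91% had none at P17, and for H3K27ac 30.7% had none. The H3K27ac peak over the start site was 2849 bp at P2 and 5317 bp at P17. A P17 H3K27ac peak of 16891 bp covered the other end of the gene, 67225305 to 67242195. The nearest SOX peak to Mef2a outside the window lay 381781 bases away, in the P2 SOX9 list.

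**Figure D2:**
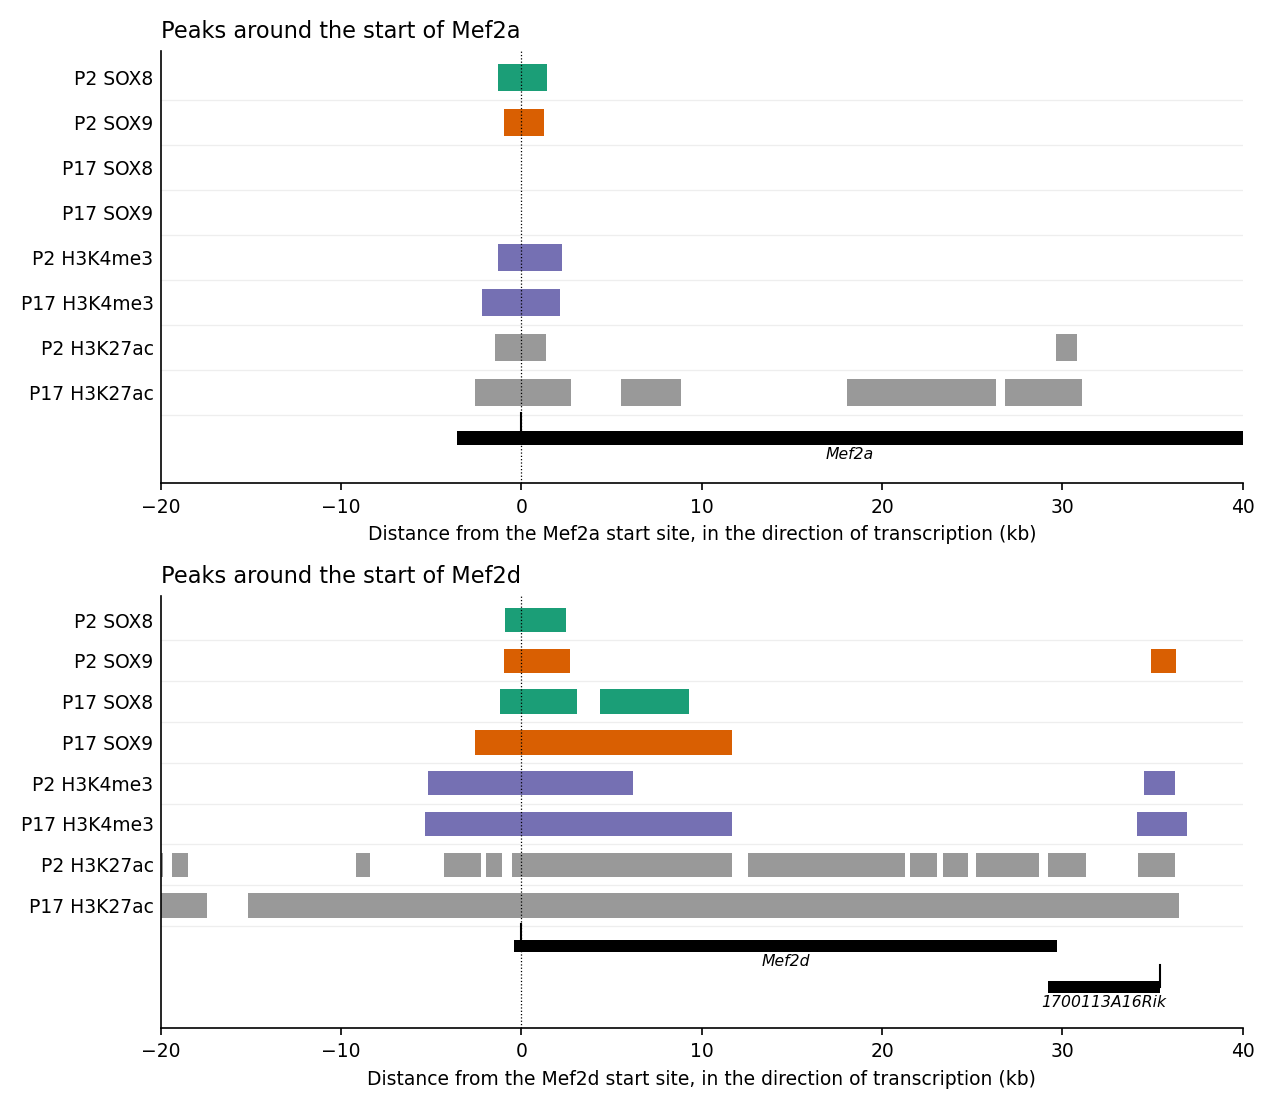
Peaks of the 8 lists (rows) around the start sites of Mef2a (upper panel) and Mef2d (lower panel), against distance from the start site in kb along the direction of transcription. Blocks are peaks, black bars genes and ticks start sites. SOX blocks are present at Mef2a at P2 only, and at Mef2d the SOX9 block spans 3640 bp at P2 and 14276 bp at P17.

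Mef2d lies among many genes, with 18 protein-coding genes in its 200 kb window including itself, against 1 for Mef2c and 4 for Mef2a. Of its 8 P2 SOX9 peaks, 7 were more than 5 kb from the gene, and 5.23% of all genes had 8 or more in their window. Of the distal peaks 4 lay on promoters of other genes. Nes, which encodes the progenitor intermediate filament nestin, had a P2 SOX9 peak of 3323 bp with P2 H3K4me3 on its promoter, and no SOX or H3K4me3 peak at P17. The lncRNA gene 1700113A16Rik, which overlaps the end of Mef2d, had a peak of 1401 bp. The shared promoter region of Tsacc and Cct3, a chaperonin subunit gene, had a peak of 1482 bp, and Smg5, a gene of nonsense-mediated decay, had a peak of 3034 bp.

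The other 3 distal peaks, at Bcan, Rhbg and Gm32518, lay under no H3K4me3 peak and on no promoter of the table. The table holds no start site for Rhbg or Gm32518. Whether the peaks at these genes lie on a promoter could therefore not be read. Bcan, which encodes the matrix proteoglycan brevican, had a P2 SOX9 peak of 2943 bp at the far end of the gene, a P2 SOX8 peak of 2207 bp and a P17 SOX9 peak of 5274 bp. Rhbg, which encodes an ammonium transporter, had a P2 SOX9 peak of 4949 bp and a P17 SOX8 peak of 4495 bp that overlapped it by 27.9% of the SOX9 peak. The lncRNA gene Gm32518 had a P2 SOX9 peak of 3343 bp and no other SOX peak. At P17 the distal SOX9 peaks of Mef2d were those at Bcan and at Smg5, of 3474 bp.

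Of the 12 P2 SOX9 peaks near the 3 genes, 7 lay on a promoter of the table, 2 of them on Mef2a and Mef2d, against 67.9% of all P2 SOX9 peaks. They overlapped P2 SOX8 in 5 cases (45.5% of all P2 SOX9 peaks did), P17 SOX9 in 4 (31.1%), P2 H3K4me3 in 8 (79.8%) and P2 H3K27ac in 12 (99.4%). When as many P2 as P17 H3K27ac peaks were kept, the widest ones, the last count was 7. All 5 P2 SOX8 peaks overlapped a P2 SOX9 peak, as 94.5% of all P2 SOX8 peaks did.

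Mef2c and Mef2d each have a miR-9 gene nearby, and the sites differed between them. Mir9-2 lies 71734 bases from Mef2c under the wide domain. Mir9-1 lies 43506 bases from Mef2d, within the lncRNA gene Gm3764, and had no SOX and no H3K4me3 peak on it at either age, with the nearest P2 SOX9 peak 22831 bases away at Rhbg. Mir9-3, which lies 12.1 Mb from Mef2a on the same chromosome and is no neighbour of it, had a P2 SOX8 peak of 2131 bp, a P2 SOX9 peak of 6725 bp and a P17 SOX9 peak of 5806 bp. At Mir9-3, H3K4me3 (5954 bp) and H3K27ac (3886 bp) were listed at P2, and at P17 neither mark had a peak on it. Of the 3 miR-9 genes 2 lay under a P2 SOX9 peak, 1 of them by the choice of the site, and 1 under a P17 SOX9 peak. Over all 1228 microRNA genes of the table, 6.35% lay under a P2 and 7.17% under a P17 SOX9 peak. These genes give the same mature microRNAs, and the lists do not show which of them is transcribed.

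The width of a SOX9 peak was set beside that of the H3K4me3 peak it overlapped. Across the 4372 P2 SOX9 peaks on H3K4me3, Spearman's rho between the widths was 0.472, and across the 1898 at P17 it was 0.284. These are correlations across peaks of the same lists, which share libraries and depth, and are given without a test. The median SOX9 peak had 64.8% of the width of its H3K4me3 peak at P2 and 85% at P17. The value was 82.1% for the wide peak at Mir9-2, 61.4% for Mef2a and 32% for Mef2d at P2. At P17 it was 83.6% for Mef2d and 26.2% for the peak at C130071C03Rik, which did not reach Mir9-2. The P2 value at Mir9-2 contains the width that chose the site, so its difference from the P17 value at C130071C03Rik is a description.

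**Figure D3:**
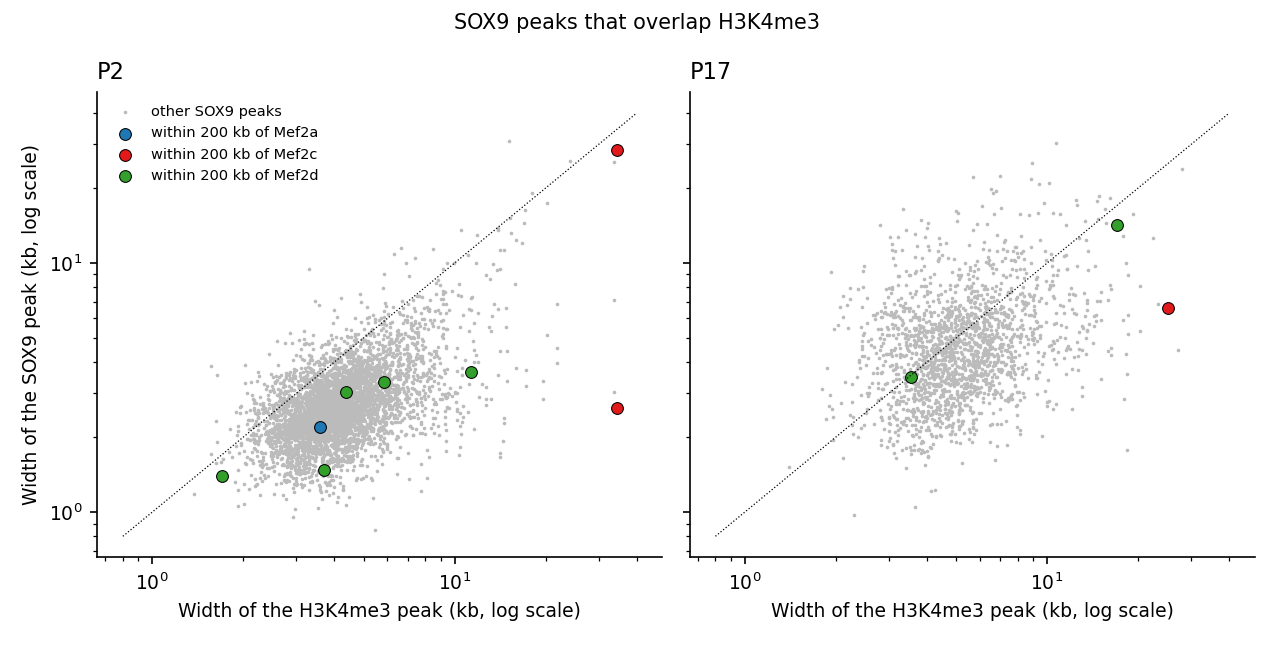
Width of each SOX9 peak against the width of the H3K4me3 peak it overlaps, in kb on log axes, at P2 (left) and P17 (right). Grey points are other peaks, large points are peaks within 200 kb of Mef2a, Mef2c or Mef2d, and the dotted line marks equal widths. The upper red point at P2 is the 28401 bp peak over C130071C03Rik and Mir9-2. The red point at P17 is the 6589 bp peak at C130071C03Rik, which does not reach Mir9-2. The upper green point at P17 is the 14276 bp peak of Mef2d.

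Mef2b, the fourth gene of the family, matched Mef2c only in which lists had a peak at its own gene. This pattern was that of 5.92% of all protein-coding genes. It had no SOX and no H3K4me3 peak within 5 kb at either age, and 5 H3K27ac peaks at P2 and 2 at P17. H3K27ac covered 21.7% of the Mef2b gene and flanks at P2 and 21.1% at P17, against 3.82% and 4.26% at Mef2c. It lay on the Mef2b promoter at P2 only, and on a Mef2c promoter at P17 only. The 200 kb window of Mef2b held 3 P2 SOX8, 7 P2 SOX9, 3 P17 SOX8 and 4 P17 SOX9 peaks, all of them distal.

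Genes of the MEF2 pathway were counted from 4 lists of 37 genes in all, taken at the gene plus 5 kb. A peak was present at 15 of them for P2 SOX8, 20 for P2 SOX9, 14 for P17 SOX8 and 14 for P17 SOX9. The shares of all genes were 15.1%, 27.7%, 13% and 15.7% in the same order. SOX9 was listed at P2 only at 11 genes (16.4% of all protein-coding genes) and at P17 only at 5 (4.35%). The counts for H3K4me3 were 25 at each age, beside 49.3% of all genes at P2 and 50.9% at P17. For H3K27ac they were 35 at P2 and 28 at P17, beside 81.8% and 57% of all genes. All 4 SOX lists had a peak at 8 of the 37 genes, against 6.45% of all genes. The groups below are small, and with 5 to 14 genes in each, their counts are descriptions beside the shares of all genes, 27.7% with SOX9 at P2 and 15.7% at P17, and nothing is read from a single group.

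Among 5 repressors, 2 had SOX9 at P2 and 3 at P17. Hdac4, a class IIa deacetylase that binds MEF2, had peaks in all 4 SOX lists, with SOX9 widths of 3052 bp at P2 and 2650 bp at P17. Cabin1, a calcineurin-binding repressor of MEF2, had SOX9 (5932 bp) and SOX8 (4945 bp) at P17 only, and so did Hdac5, with 5222 and 3379 bp. Hdac7 had P2 SOX9 (4531 bp) and P17 SOX8 (3138 bp).

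Among 8 coactivators and partners, 6 had SOX9 at P2 and 2 at P17, and 4 had it at P2 only. Of all genes with a P2 SOX9 peak, 58.9% had none at P17. Crx, the photoreceptor factor that works with MEF2D, had peaks in all 4 SOX lists, and its widest SOX9 peak was 4470 bp at P2 and 12563 bp at P17. Over all genes with SOX9 at both ages, the median ratio of widest P17 to widest P2 SOX9 peak was 1.52. The acetyltransferase gene Ep300 also had peaks in all 4 lists, with SOX9 at 2929 and 3131 bp. Kat2b had P2 SOX9 (3916 bp) and P17 SOX8 (3531 bp).

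Among 10 signalling genes, 7 had SOX9 at P2 and 3 at P17, and 4 of the 7 had it at P2 only, beside 58.9% of all genes with a P2 SOX9 peak. The 3 with peaks in all 4 SOX lists were Cdk5, a kinase that phosphorylates MEF2 in neurons, Sik1, a kinase acting on class IIa deacetylases, and Ppp3ca, a calcineurin catalytic subunit. Their widest P17 SOX9 peaks were 6489 bp at Cdk5, 4351 bp at Sik1 and 5153 bp at Ppp3ca, against 1901, 3497 and 3914 bp at P2. The median ratio of 1.52 over genes with SOX9 at both ages applies here too, and Sik1 and Ppp3ca lay below it. Mapk14, which encodes the p38 kinase, had a P2 SOX9 peak of 2698 bp and none at P17.

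Among 14 target genes, 5 had SOX9 at P2 and 6 at P17. Jun, an immediate early gene, had peaks in all 4 SOX lists, with SOX9 widths of 4673 bp at P2 and 4212 bp at P17. Egr1, also an immediate early gene, had SOX9 of 2961 bp at P2 and 3564 bp at P17, and Homer1, a synaptic scaffold gene, had P2 SOX9 of 1875 bp. The 3 targets with SOX9 at P17 only were Nr4a1 (10551 bp), Arc (7254 bp) and Ppargc1a (4029 bp), named after their values were seen. The targets Klf2, Myog, Ckm, Nppa and Myl2 had no SOX and no H3K4me3 peak at either age, also named after their values were seen. Slc2a4, a target that encodes a glucose transporter of muscle and fat, had P2 SOX9 (2980 bp) and P2 H3K4me3 (2722 bp).

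**Figure D4:**
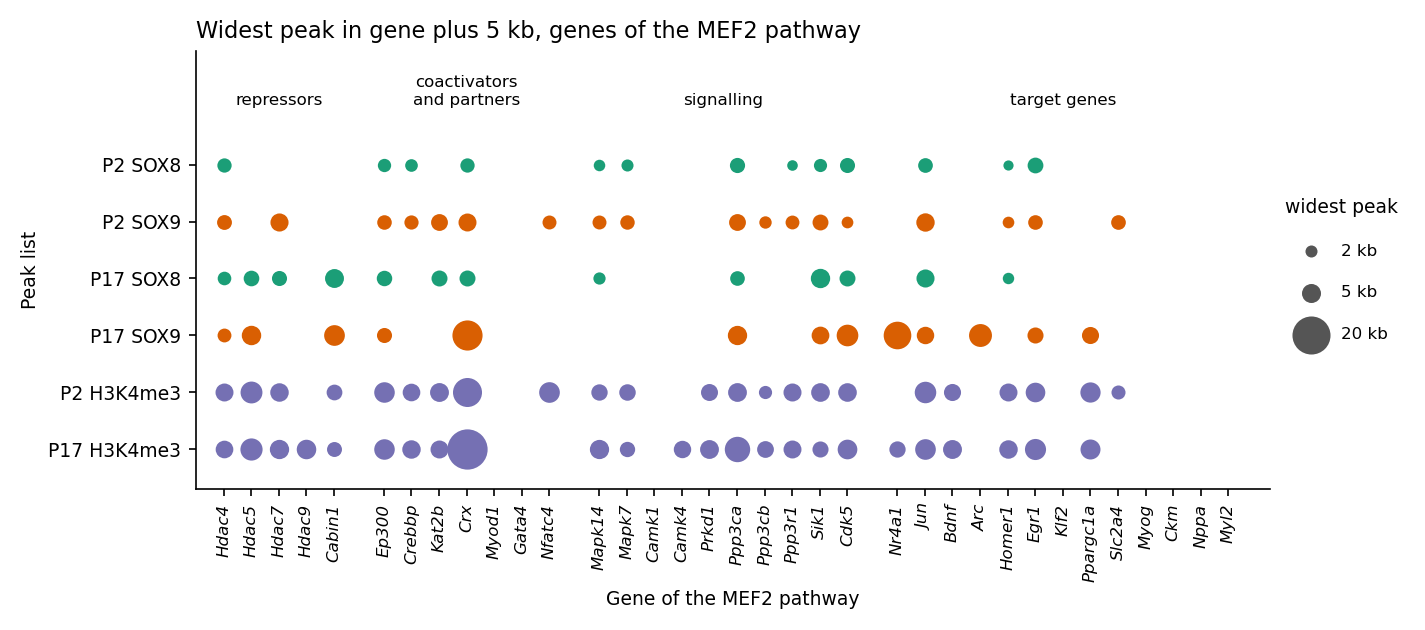
Widest peak at genes of the MEF2 pathway (columns, in 4 groups) in the SOX and H3K4me3 lists (rows). The area of a dot is proportional to the width, and no dot means no peak in the gene plus 5 kb. Crx has dots in every row, with 12563 bp for P17 SOX9, and the 4 genes at the far right have none.

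The genes most like each member were sought among protein-coding genes with the same presence or absence of a peak in all 8 lists. Likeness was the Euclidean distance, over the 8 lists, between square roots of the percentage of the gene plus 5 kb that was covered. For Mef2d, 1382 genes (6.31% of all genes) shared the pattern. The nearest were Anp32a (1.71), Slc27a1 (1.98) and Crxos (2.06), the last of which neighbours Crx. For Mef2a, 883 genes (4.03%) did, with Atp11b (0.523), Gigyf2 (0.526) and Dmxl2 (0.658) the nearest. For Mef2c, 1295 genes (5.92%) did, with Grid2ip (0.231), Mthfs (0.232) and Sp110 (0.293) the nearest. In the Mef2c pattern only the H3K27ac lists have peaks, so its distances rest on these lists alone. Distances are therefore not comparable between members, and gene length was not matched.

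The tissue label was checked against marker genes. H3K4me3 lay at 8 of 8 photoreceptor genes at P17 and 6 at P2, and at 8 of 8 progenitor genes at P2 and 6 at P17. It lay at 5 of 6 Müller glia genes at P2 and 2 at P17, at 1 of 5 bipolar cell genes at P2 and 3 at P17, and at 5 of 8 inner neuron genes at P2 and 4 at P17. It lay at 1 of 5 microglia and 1 of 5 endothelial genes at both ages, and at 0 of 5 skeletal muscle genes. The shares of all genes were 49.3% at P2 and 50.9% at P17. SOX9 peaks lay at 2 of 8 photoreceptor genes at P2 and 8 at P17, at 8 of 8 progenitor genes at P2 and 4 at P17, and at 5 of 6 Müller glia genes at P2 and 0 at P17. They lay at 1 of 5 bipolar cell genes at each age and at 3 of 8 inner neuron genes at P2 and 1 at P17. They lay at 1 of 5 microglia genes at each age, at 1 of 5 endothelial genes at P2 and 0 at P17, and at 0 of 5 skeletal muscle genes, where 27.7% of all genes had SOX9 at P2 and 15.7% at P17. The part of this change in the peaks at Mef2a, Mef2d and Mir9-2 was not tested. In whole retina, fewer cells with a bound site and less binding per cell cannot be told apart. P17 SOX9 peaks thus lay at all 8 photoreceptor genes and at no Müller glia gene counted, although SOX9 is known from Müller glia. The reason was not tested. IgG was not analysed here, so how many listed SOX peaks are background signal is unknown.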

How the data were processed

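CUT&RUN libraries of mouse retina were represented by 8 deposited peak lists, 1 for each of 4 targets at P2 and P17. A list's age and target were read from its name, and how libraries were combined is not given in the sources used here. Per the submitters' processing notes, Bowtie2, SEACR and the build GRCm38 were used, with no roles or thresholds. Each deposited score was 0, so the authors' lists hold positions only, counted here from 1. Depth is unknown, and list length and peak width may depend on it. IgG libraries were not analysed here.

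Genes and start sites came from RefSeq tables of GRCm38.p6, which give no exons. Overlaps (at least 1 bp), widths and distances to gene ends were computed with pandas 2.3.3 and numpy 2.4.6 in Python 3.11.15, and rank correlations with scipy 1.17.1. The interval code was tested on simulated data. Named genes were the family, the miR-9 genes, genes at SOX peaks within 200 kb, and at most 4 per pathway list with a SOX9 peak, those in most SOX lists first; some of these are not reported here. Marker genes are given as counts. Members, lists and rules were chosen with earlier results of these data known. Alternatives changed flank, window, overlap, peak width and list length, and the gene background.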

Additional observations from a re-analysis of the deposited data

How the results depend on the processing

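Of 83 recomputed main values, 67 were within 1.5 times of the value given, a limit that a change between 2 and 3 genes still meets. With gene plus 50 kb, P2 SOX9 and P2 H3K4me3 lay at 3 of the 3 genes. The wide P2 SOX9 and H3K4me3 peaks, 47721 and 45398 bp from Mef2c, then count for it. With the wider 50% of each list or equal numbers of widest peaks, P2 H3K27ac lay at 2 of the 3 genes. With the wider 50% of each list, P2 SOX9 lay at 1 of the 3 genes, the peaks within 200 kb numbered 2 for P2 SOX8, 7 for P2 SOX9 and 2 for P17 SOX9, and those P2 SOX9 peaks overlapped P2 SOX8 in 1 case, P17 SOX9 in 2, P2 H3K4me3 in 4 and P2 H3K27ac in 7. With equal numbers of widest peaks, P2 SOX9 lay at 1 of the 3 genes and 0 had it at P2 only, since the peak at Mef2a was dropped by the construction of this setting. A 100 kb window held 7 P2 SOX9 and 2 P17 SOX9 peaks, and a 500 kb window 24 P2 SOX9, 7 P17 SOX8 and 8 P17 SOX9 peaks. With the P2 H3K27ac list cut to the length of the P17 list, 7 of the 12 P2 SOX9 peaks overlapped it. Among 8636 genes of at least 25 kb, nearer in length to the 3 members, 34.7% had a P2 SOX9 peak and 17% a P17 SOX9 peak. Merging P2 SOX9 peaks less than 2 kb apart, which was added later with the data in view, joined the wide peak with both of its neighbours into 1 of 36663 bp. No paired analysis was possible because the lists hold no values per replicate. The lists give no depth, so absence of a peak at P17 cannot be told from a signal under the caller's threshold.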
